A study of Mus musculus with 12 samples.

Results

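From the 55401 genes counted, 10 genes known to switch on or hold back the 2-cell program of the mouse embryo are described here. They were chosen by name from what is known of the program: the activators Dppa2, Dppa4 and Nelfa, the repressors Trim28, Chaf1a, Chaf1b, Kdm1a, Smchd1 and Zmym2, and Dux, which the annotation lists as Duxf3. The rule uses gene names and no measured value, although it was written with earlier results of these data known. All 10 genes passed the filter on low counts and were tested, Duxf3 through its counts in TPS lines alone.

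Polyadenylated RNA of mouse totipotent potential stem (TPS) cells and of extended pluripotent stem (EPS) cells was sequenced in bulk, from 3 lines of each, with 2 technical replicates per line and 12 libraries in all. TPS lines were grown on feeder cells in the medium labelled VCED, and EPS lines on feeder cells in the medium labelled LCDM. The methods name the TPS condition CPEC, a cocktail of CD1530 (which activates RARγ), VPA (which inhibits histone deacetylases), EPZ004777 (which inhibits DOT1L) and a GSK3 inhibitor. Feeders were mitomycin C-treated mouse embryonic fibroblasts, and neither the labels nor the methods tie a TPS line to an EPS line or say whether a TPS line came from EPS cells or from an embryo. In the methods, TPS cells from embryos come from B6-Tg (C57BL/6-tdTomato) mice, but the labels give no genotype, strain or transgene for the lines sequenced here. Each line counts as 1 sample, since its 2 libraries are technical replicates.

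In the mouse embryo the zygotic genome is activated at the 2-cell stage, when the homeodomain factor DUX switches on Zscan4, MERVL retrotransposons and other genes of that stage. DPPA2 and DPPA4 form a complex that binds DNA and acts upstream of Dux in embryonic stem cells, and NELFA, a subunit of the negative elongation factor, has been described as a maternal driver of the same program together with TOP2A. On the other side, TRIM28 and the H3K9 methyltransferase SETDB1, the CAF-1 histone chaperone, the demethylase LSD1 (gene Kdm1a), SMCHD1 and the zinc finger protein ZMYM2 each limit 2-cell-like transcription in pluripotent cells.

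Library totals ranged from 13676051 to 21821707 counts. Technical replicates were summed per line, and levels are written as CPM, counts per 1000000 counts of the line after TMM scaling, a correction for differences in RNA composition. Both groups were compared with edgeR (quasi-likelihood test) over 17468 genes, with p-values adjusted by the Benjamini-Hochberg method, and a gene was called at an adjusted p under 0.05. In bulk RNA, fewer cells of a type and less RNA per cell cannot be told apart. A list of 16 fibroblast genes summed to between 3503 and 6268 CPM in TPS lines and to between 327 and 1382 CPM in EPS lines, with all 16 above 0 in log2 fold change and 11 called higher, beside 14.4% of all tested genes. Of 10 pluripotency genes, 5 were called lower in TPS lines, beside 7.34% of all tested genes, and the list summed to between 3688 and 4093 CPM against between 6545 and 8480 CPM. A list of 7 primitive endoderm genes summed to between 55.5 and 112 CPM in TPS lines and between 18.4 and 30.5 CPM in EPS lines. Of these genes 4 were called higher, beside 14.4% of all tested genes, and 3 were not called. Most of that sum in every line came from Pdgfra and Dab2. Pdgfra stood at 49.1, 12.5 and 31.2 CPM in TPS lines and 2.48, 6.15 and 8.37 CPM in EPS lines. Dab2 stood at 51.4, 18.9 and 31.1 CPM against 7.02, 8.92 and 11.9 CPM. Within each group, Pdgfra and Dab2 ranked the lines in the same order as the fibroblast list. Of these 4 primitive endoderm genes 1 (Sox17), and of the 11 fibroblast genes called 1 (Fap), reached the filter's count in fewer than 3 EPS lines and passed through their TPS lines. A list of 8 trophoblast genes summed to 144, 602 and 219 CPM in TPS lines, where line 2 stood apart, and to between 103 and 178 CPM in EPS lines. Of its 7 tested genes edgeR called 2 higher, Cdx2 and Gata3, beside 14.4% of all tested genes, while DESeq2 called 4 and limma-voom 1. Cdx2 and Gata3 reached the filter's count in 1 EPS line each and passed through their TPS lines. Apart from a fit with the fibroblast list as a covariate, given below, the part of these other cell types in the results was not tested.

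Among the 10 genes, 2 were called higher in TPS lines, Dux and Dppa2, beside 14.4% of all tested genes, and 1 was called lower, Chaf1b, beside 7.34%. Dux passed the filter only through its TPS lines and had to differ once tested, so its place in that count is no support. The remaining 7 did not pass the test, and Zmym2 came closest to it.

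**Figure D1:**
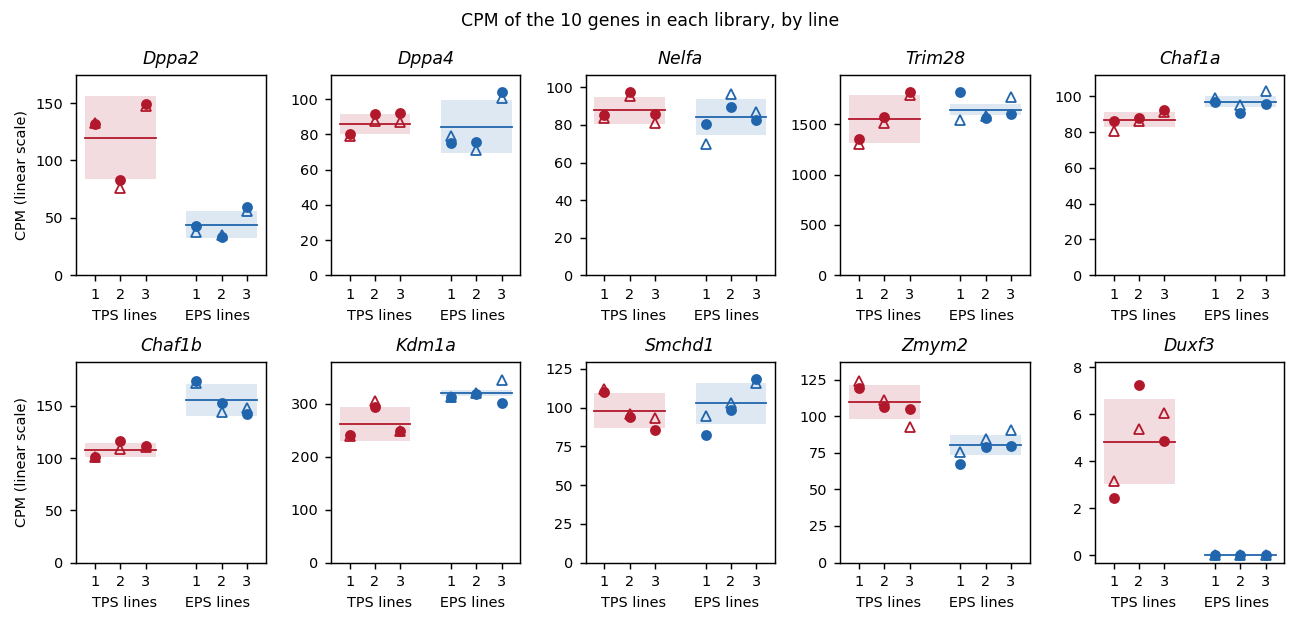
CPM (linear axes) of the 10 genes in the 12 libraries, by line, with TPS in red and EPS in blue. Filled circles are technical replicate 1 and open triangles technical replicate 2, the horizontal line is the mean over the 3 lines and the band is 1 SD; Duxf3 lies at 0 in every EPS library, and the TPS and EPS libraries of Dppa2, Chaf1b and Zmym2 do not overlap.

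Dux was read in every TPS library and in no EPS library. The gene lies on the minus strand at chr10:58229979-58232675 (GRCm38, GENCODE M21), is annotated as protein coding and has 2 transcripts. It had between 42 and 130 counts in each TPS library and 0 counts in all 6 EPS libraries, which together held 104913212 counts. In CPM the 3 TPS lines stood at 2.82, 6.24 and 5.46, with a mean of 4.84 ± 1.79 (SD, n = 3), and the 3 EPS lines at 0. A count of 0 in an EPS line allows up to 3 counts, which is 0.0979 CPM in the line where they weigh most, and against that floor Duxf3 was at least 49.5-fold higher in TPS lines (edgeR adjusted p = 0.0026). Because it passed the filter on low counts only through the group in which it is high, it had to differ once tested, and its call is no support beyond the counts themselves. The lowest TPS line alone was at least 28.8-fold above it. This floor covers counting error only, since the reads carry no molecular identifiers and are not independent molecules.

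Dux is known as a tandem array whose copies share sequence. The longest Duxf3 transcript is 98.1% identical to the transcript of AW822073, annotated as protein coding, over 96.7% of its length, and 98.7% identical to the pseudogene Gm10807 over 39.3%. Both lie on chromosome 10 close to Duxf3, so that reads counted on 1 of them may come from another. AW822073 had 72, 199 and 117 counts in the TPS lines and Gm10807 had 26, 85 and 47, and both had 0 in every EPS line. TPS line 1 was the lowest and TPS line 2 the highest TPS line for all 3 genes. Their lengths differ, so these counts give no order among the genes. Adding the counts of both neighbours to Duxf3 leaves the EPS lines at 0, so a test of the sum adds nothing.

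**Figure D2:**
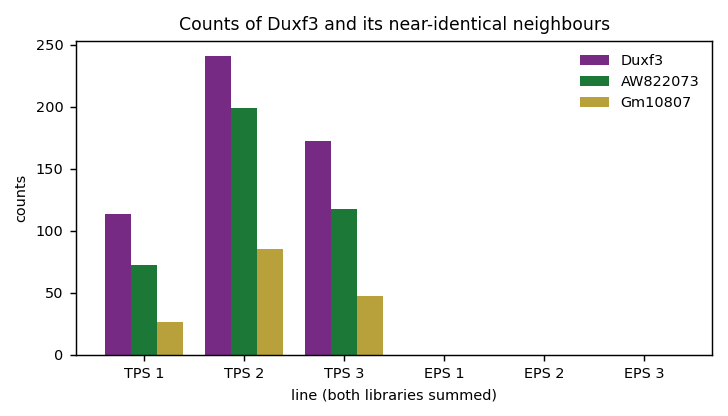
Counts of Duxf3 and of its near-identical neighbours AW822073 and Gm10807 in each line, with the 2 libraries of a line summed. Bars start at 0 and carry no error, since each is 1 line; the EPS lines have no bar because all 3 genes were at 0 there.

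Duxbl1, Duxbl2 and Duxbl3 are homeobox relatives of Dux outside this array. Duxbl1 stood at 12.7, 7.98 and 16.1 CPM in TPS lines and at 4.47, 13.3 and 2.99 CPM in EPS lines, so that the lines overlapped. By edgeR 0 of the 3 were called, as by DESeq2 and limma-voom and at an unadjusted p under 0.05, with log2 fold changes between 0.72 and 0.83 and adjusted p-values between 0.318 and 0.371. Duxbl2 and Duxbl3 had nearly the same counts in each line and are not separate measurements. As a readout of the 2-cell program, 12 of 12 listed 2-cell genes, among them Zscan4c, Gm8300 and Gm5662, were called higher, beside 14.4% of all tested genes. All of them except Sp110 and Zscan5b had at most 3 counts in every EPS line, and Sp110 had 8, 9 and 13. Like Duxf3, all but Sp110 and Zscan5b therefore reached the filter's count in TPS lines alone. Sp110 also reached it in 1 EPS line but passed through its TPS lines, and the count of genes called is a description. That list was also chosen with these data known. Zscan4c stood at 72.7, 89.4 and 106 CPM in TPS lines and at 0, 0.0589 and 0 in EPS lines. In the study's qPCR, knockdown of Dux in TPS cells lowered MERVL, Zfp352 and Tcstv3, while Zscan4 and Tcstv1 did not change significantly. Which of the listed genes depend on Dux in these lines was not tested here.

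The sequence before the RefSeq start of Duxf3 is shown because reads of this gene were found in TPS libraries only. The 250 bases end 1 base before the start on the minus strand, at chr10:58233090-58233339 (GRCm38.p6, RefSeq). That RefSeq start, at 58233089, lies upstream of the GENCODE span whose reads were counted, which ends at 58232675. Capitals mark the CCAAT box.

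Duxf3: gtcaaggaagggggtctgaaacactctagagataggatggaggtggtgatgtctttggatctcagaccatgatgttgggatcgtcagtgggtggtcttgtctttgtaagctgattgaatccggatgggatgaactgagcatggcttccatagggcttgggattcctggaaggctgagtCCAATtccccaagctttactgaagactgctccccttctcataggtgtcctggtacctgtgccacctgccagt

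Its window of 300 bases, 250 before and 50 after the start, held 3 CpG dinucleotides, against a median of 7 over the 32851 mouse promoter windows of the RefSeq table. Of those windows, 23.3% held fewer. Of the other motifs searched, the GC box, the octamer, the E-box, the E2F site and the retinoic acid receptor motif, spelled out further on, none lay in the window.

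Dppa2, which encodes a SAP-domain protein, was the other activator called higher. It lies on the plus strand at chr16:48303908-48319723, and 2 transcripts are annotated. Its level was 132, 79.0 and 148 CPM in the TPS lines and 39.9, 34.6 and 57.3 CPM in the EPS lines, which is 119.6 ± 36.1 against 43.9 ± 11.8 (mean ± SD, n = 3 each). Every TPS line was above every EPS line, which held for 23.6% of all tested genes, and the same was true of the single libraries (76.3 to 149 CPM against 33.2 to 59.7 CPM; 16.7% of tested genes). TPS line 2 was the lowest TPS line and stood closer to EPS line 3 than to the other TPS lines. The log2 fold change was 1.44 ± 0.28 (SE; 95% interval 0.80 to 2.09), or 2.72-fold, with an edgeR adjusted p of 0.0122. It remained called when any line was left out, with a log2 fold change between 1.26 and 1.67 and an adjusted p of at most 0.0478.

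Dppa4, the partner with which DPPA2 forms its complex, was not called. The gene lies on the same strand at chr16:48283733-48294237, and 9670 bases without another annotated gene separate it from Dppa2. It stood at 79.1, 89.2 and 89.3 CPM in TPS lines and at 77.6, 73.8 and 102 CPM in EPS lines. The TPS lines lay inside the range of the EPS lines, and the log2 fold change was 0.03 (95% interval -0.34 to 0.39, adjusted p = 0.925). An increase of the size found for Dppa2 is outside that interval.

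The ratio of Dppa2 to Dppa4 compares the partners within each line, where a difference in scaling between lines cancels. In CPM it was 1.67, 0.886 and 1.66 in the TPS lines and 0.515, 0.469 and 0.562 in the EPS lines. Dppa4 was the more abundant of the pair by CPM in all EPS lines and in TPS line 2, and Dppa2 in the other TPS lines. The ratio was higher in TPS lines by 1.39 on the log2 scale, and the exact permutation test (two-sided, 3 lines against 3) gave p = 0.1, the smallest that this design allows. Per kilobase of annotated exon, where levels of different genes can be compared, Dppa2 rose from 17.9 ± 4.84 CPM in EPS lines to 48.9 ± 14.7 CPM in TPS lines, while Dppa4 stood at 50.8 ± 9.15 and 51.7 ± 3.53. By this measure the range of Dppa2 over TPS lines (32.3 to 60.5 CPM) overlapped that of Dppa4 (47.6 to 53.8 CPM), and in EPS lines Dppa2 (14.1 to 23.4 CPM) lay below Dppa4 (44.4 to 61.3 CPM).

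Both genes have processed pseudogenes that are nearly identical to part of their transcripts. Gm9788 is 99.3% identical to Dppa2 over 37.0% of the transcript and had 295, 360 and 220 counts in TPS lines and 75, 55 and 314 in EPS lines. Gm14058 is 99.4% identical to Dppa4 over 36.0% and had 115, 177 and 62 counts against 93, 60 and 125. With the counts of these pseudogenes, and of the smaller Gm8023 and Gm5501, added to their parents, the log2 fold change was 1.40 for Dppa2 (adjusted p = 0.0146) and 0.03 for Dppa4 (adjusted p = 0.909).

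A fit that takes the mean expression of the fibroblast list as a covariate was chosen after the data had been seen. It gave Dppa2 a log2 fold change of 0.85 with an adjusted p of 0.402, and over all genes it called 90 higher and 16 lower. The list itself differs between the groups. The fibroblast list summed to 6268, 3503 and 3681 CPM in TPS lines 1 to 3 and to 327, 1299 and 1382 CPM in EPS lines 1 to 3. TPS line 2 was the lowest TPS line and EPS line 3 the highest EPS line for both the list and Dppa2. The highest TPS line was line 1 for the list and line 3 for Dppa2, and the lowest EPS line was line 1 for the list and line 2 for Dppa2. Beyond this fit, the part of feeder RNA in the change of Dppa2 was not tested.

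Nelfa stood at 84.0, 96.0 and 83.2 CPM in TPS lines and at 74.4, 93.9 and 84.7 CPM in EPS lines. The gene lies on the minus strand at chr5:33897916-33936413, and its last bases overlap Nsd2 on the other strand, so reads there cannot be assigned to either without strand. The groups overlapped and the log2 fold change was 0.06 (95% interval -0.26 to 0.38, adjusted p = 0.797).

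The other subunits of the negative elongation factor lay below 0, as did 8774 of the 17468 tested genes, and 1 of them was called lower, beside 7.34% of all tested genes. Nelfe, the subunit that binds RNA, stood at 50.2, 57.9 and 55.7 CPM in TPS lines against 91.6, 70.0 and 73.1 CPM in EPS lines, a log2 fold change of -0.52 ± 0.15 (SE, adjusted p = 0.0442). Nelfb (log2 fold change -0.32, adjusted p = 0.175) and Nelfcd (log2 fold change -0.27, adjusted p = 0.207) were not called. Top2a, the topoisomerase described as the partner of NELFA and also a gene of cycling cells, was lower at 592, 616 and 595 CPM against 770, 975 and 826 CPM (log2 fold change -0.51, adjusted p = 0.0328).

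Of the other reported activators, Tbx3, a T-box factor of naive pluripotent cells, was called lower, at 81.9, 61.5 and 95.9 CPM in TPS lines and 219, 198 and 162 CPM in EPS lines (log2 fold change -1.27, adjusted p = 0.00622). Trp53 and Gata2 were not called by edgeR (log2 fold changes -0.03 and -1.49, adjusted p-values 0.915 and 0.107), while DESeq2 on the 6 lines called Gata2 lower (adjusted p = 0.0215).

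Among the 6 repressors, 1 was called lower, beside 7.34% of all tested genes, and 5 were not called. A list of 6 is too short to be set against that share. In the default fits on the 6 lines, edgeR, DESeq2 and limma-voom alike called 0 higher, and 1 (Zmym2) was higher at an unadjusted p under 0.05. Other settings that did call Zmym2 are given with that gene. Their median log2 fold change was -0.12, while that of all tested genes was 0.00.

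Chaf1b encodes the p60 subunit of CAF-1, the chaperone that places new H3-H4 histones on replicated DNA. The gene lies on the plus strand at chr16:93883901-93906115. It stood at 100.5, 112 and 111 CPM in the TPS lines and at 173, 149 and 145 CPM in the EPS lines, or 108 ± 6.37 against 156 ± 15.4 (SD, n = 3). All TPS libraries were below all EPS libraries, which held for 11.8% of tested genes. The log2 fold change was -0.53 ± 0.13 (SE; 95% interval -0.83 to -0.23), a level 30.8% lower, with an edgeR adjusted p of 0.0248. This call was close to the threshold: the adjusted p was 0.0504 without EPS line 1, 0.0854 without TPS line 1, 0.0554 without TPS line 2 and 0.0723 without TPS line 3. With the line number as a block it was 0.0685, at an unchanged log2 fold change of -0.53. Scaling by library size alone, which moves the median of all genes by 0.14, gave a log2 fold change of -0.38 and an adjusted p of 0.0641. With the fibroblast list as a covariate, chosen after the data had been seen, they were -0.26 and 0.526.

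Chaf1a, the large p150 subunit of the same chaperone, was not called. It lies on the plus strand at chr17:56040439-56072289, where its end overlaps Ubxn6 on the other strand. Its values were 82.7, 86.9 and 91.4 CPM in TPS lines and 98.4, 93.7 and 99.3 CPM in EPS lines. Every TPS line was below every EPS line, which held for 19.1% of all tested genes, but the log2 fold change of -0.16 (95% interval -0.42 to 0.10) had an adjusted p of 0.349. Ubxn6 had 1853 counts over all libraries against 19224 for Chaf1a.

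The ratio of Chaf1a to Chaf1b in CPM was 0.823, 0.773 and 0.826 in the TPS lines and 0.567, 0.630 and 0.684 in the EPS lines. Chaf1b exceeded Chaf1a in every line, and by more in each EPS line than in any TPS line. On the log2 scale the ratio was higher in TPS lines by 0.37, and the exact permutation test (two-sided) again gave its smallest p of 0.1, which is also the value adjusted over the 2 ratios tested.

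**Figure D3:**
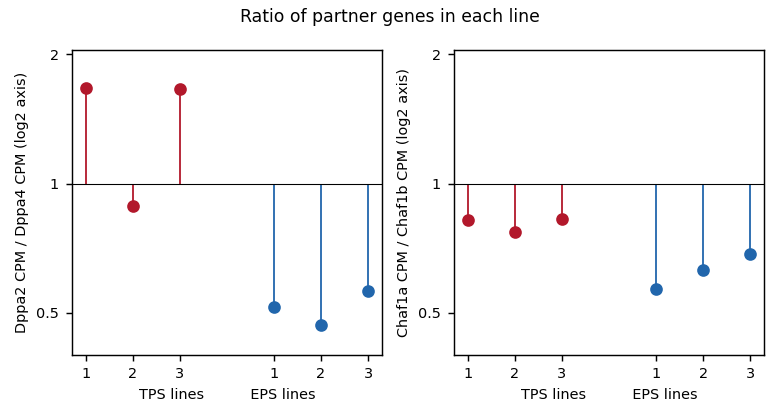
Ratio of the CPM of Dppa2 to Dppa4 (left) and of Chaf1a to Chaf1b (right) in each line, on a log2 axis with lines drawn from a ratio of 1. Each point is 1 line with both libraries summed; all TPS points lie above all EPS points in both panels.

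The sequences before the starts of the CAF-1 genes are shown because 1 of these partners was called and the other was not, while the test of their ratio cannot go below 0.1. Both are 250 bases on the plus strand that end 1 base before the RefSeq start, at chr17:56040166-56040415 for Chaf1a and at chr16:93883651-93883900 for Chaf1b (GRCm38.p6). Capitals mark matches to the motifs searched, which are an E-box and a CCAAT box in Chaf1a and GC boxes in Chaf1b.

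Chaf1a: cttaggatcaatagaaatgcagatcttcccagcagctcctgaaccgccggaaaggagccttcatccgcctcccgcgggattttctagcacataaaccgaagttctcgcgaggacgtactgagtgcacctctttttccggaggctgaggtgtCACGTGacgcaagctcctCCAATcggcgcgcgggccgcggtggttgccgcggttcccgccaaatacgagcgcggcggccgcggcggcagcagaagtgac

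Chaf1b: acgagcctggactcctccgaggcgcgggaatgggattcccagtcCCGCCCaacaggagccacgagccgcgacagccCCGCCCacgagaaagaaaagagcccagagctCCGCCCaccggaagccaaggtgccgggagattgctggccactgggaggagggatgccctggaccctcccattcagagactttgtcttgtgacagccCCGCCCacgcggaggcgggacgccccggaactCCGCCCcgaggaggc

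Promoter windows of 300 bases were found for 8 of the 10 genes, in 9 windows, since Zmym2 has 2. Their RefSeq starts need not match the GENCODE genes that were counted. For Trim28 the RefSeq start, at 13024152, lies inside the GENCODE span, which begins at 12999114. Letters searched on both strands were GGGCGG for the GC box, CCAAT for the CCAAT box, ATTTGCAT for the octamer, CACGTG for the E-box, TTTCGCGC or TTTGGCGC for E2F and AGGTCA for the retinoic acid receptor motif. They are found in 35.7%, 37.4%, 1.74%, 7.15%, 0.813% and 16.3% of all 32851 windows, in that order, and none of these letters is part of another motif. Chaf1b held 5 GC boxes and Chaf1a 1, Smchd1 held 4, Nelfa and Trim28 held 2 each, and Zmym2 held 2 in its first window. CCAAT was found in Chaf1a, Kdm1a, Duxf3 and the first Zmym2 window. AGGTCA was found in Kdm1a and Smchd1, 115 and 110 bases before the start. All windows except that of Duxf3 held between 23 and 40 CpG dinucleotides. A match to these letters is a description of the window and no evidence of binding.

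The other listed histone chaperones were not called. Rbbp4, the p48 subunit of CAF-1 that many other chromatin complexes share, stood at 497, 539 and 511 CPM in TPS lines against 720.3, 563 and 625 CPM in EPS lines (log2 fold change -0.30, adjusted p = 0.146). In the list of 11 chaperone genes, Chaf1b included, 10 had a fold change below 0, and 1 was called lower, which is close to the 7.34% of all tested genes. The median was -0.37. A list of 12 genes of cycling cells summed to between 4178 and 4513 CPM in TPS lines and between 5077 and 5405 CPM in EPS lines, with 11 of 12 below 0 and Top2a the gene called lower. Its part in the lower level of Chaf1b was not tested.

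Zmym2 encodes a zinc finger protein that binds LSD1-CoREST and SUMO. It lies on the plus strand at chr14:56886653-56962701 and stood at 121, 109 and 98.4 CPM in TPS lines and at 72.3, 82.7 and 85.5 CPM in EPS lines. Every TPS line was above every EPS line (23.6% of tested genes), and so was every library (16.7% of tested genes). With a log2 fold change of 0.45 ± 0.14 (SE; 95% interval 0.13 to 0.76) and an adjusted p of 0.0512 it narrowly missed the threshold. It passed with library size alone (log2 fold change 0.59, adjusted p = 0.0261), with upper quartile factors (0.50, adjusted p = 0.0375), with a filter of at least 1 CPM in 3 lines (0.48, adjusted p = 0.0433) and with technical replicate 1 alone (0.55, adjusted p = 0.0280), and also with edgeR and DESeq2 on 12 separate libraries. It did not pass with technical replicate 2 alone (0.39, adjusted p = 0.118), without a filter (adjusted p = 0.118), with DESeq2 on the 6 lines (adjusted p = 0.0907), with the line number as a block (adjusted p = 0.115), with the fibroblast covariate (0.21, adjusted p = 0.667) or without any 1 of the lines (adjusted p between 0.0787 and 0.162). Among the repressors, Zmym2 was the one with a fold change above 0.

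Kdm1a, the gene of the histone demethylase LSD1, had a fold change below 0 and was not called. It lies on the minus strand at chr4:136550540-136602723, overlapping Luzp1 on the other strand, and stood at 239, 299 and 248 CPM in TPS lines and 314, 322 and 324 CPM in EPS lines. All TPS lines were below all EPS lines (19.1% of tested genes), and TPS line 2 came closest. The log2 fold change was -0.29 (95% interval -0.59 to 0.01, adjusted p = 0.150). When the 12 libraries were treated as separate samples, which counts technical replicates as if they were lines, the adjusted p was 0.0104 with edgeR and 0.00644 with DESeq2.

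Zmym3, a relative of Zmym2 in the same complex, was called higher, at 67.2, 59.1 and 71.3 CPM in TPS lines and 40.6, 35.6 and 43.5 CPM in EPS lines (log2 fold change 0.72 ± 0.14 SE, adjusted p = 0.0135). By edgeR it was the 1 gene called among the 12 of the LSD1 and CoREST list, Kdm1a and Zmym2 included, of which 7 were below 0 and 5 above, while 14.4% of all tested genes were called higher. DESeq2 on the 6 lines also called Gse1 lower (adjusted p = 0.0363), which edgeR did not (adjusted p = 0.0809). Rcor1, the CoREST scaffold, and the deacetylases Hdac1 and Hdac2 were not called, with log2 fold changes of 0.21, -0.09 and -0.45 and adjusted p-values of 0.421, 0.684 and 0.0950. Hdac2 was lower in every TPS line than in every EPS line (19.1% of tested genes).

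Trim28, the corepressor that zinc finger proteins recruit to retroelements, was the most abundant of the 10 genes and did not differ by more than the spread between lines. It lies on the plus strand at chr7:12999114-13031035, where its annotated span overlaps Zbtb45 on the other strand. The values were 1321, 1539 and 1804 CPM in TPS lines and 1663, 1584 and 1690 CPM in EPS lines. TPS lines lay on either side of the EPS lines, and the log2 fold change was -0.08 (95% interval -0.43 to 0.26, adjusted p = 0.728). With library size alone its sign turned, to 0.07, and it was not called.

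Setdb1, the methyltransferase recruited by TRIM28, stood at 99.6, 97.6 and 113 CPM in TPS lines and 113, 129 and 171 CPM in EPS lines and was not called (log2 fold change -0.41, adjusted p = 0.133). In the list of 13 genes around TRIM28 and SETDB1, 10 were below 0, beside 8774 of 17468 tested genes, and 2 were called lower, beside 7.34%. Those were Cbx5, the gene of heterochromatin protein HP1α, with 276, 335 and 295 CPM in TPS lines against 421, 400 and 482 CPM in EPS lines (log2 fold change -0.52, adjusted p = 0.0328), and Mphosph8, a subunit of the HUSH silencing complex (log2 fold change -0.43, adjusted p = 0.0489). Mphosph8 was not called by DESeq2 (adjusted p = 0.0664) or limma-voom (adjusted p = 0.0515) on the 6 lines, which leaves 1 gene of the list called by either. Of the 6 H3K9 methyltransferase genes listed, 0 were called by edgeR, DESeq2 or limma-voom, and 1 (Setdb1) was lower at an unadjusted p under 0.05.

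Smchd1, which encodes a chromosome-structure protein of the inactive X and of repeat arrays, stood at 111, 94.7 and 89.2 CPM in TPS lines and 90.0, 102 and 117 CPM in EPS lines. It lies on the minus strand at chr17:71344489-71475343. The groups overlapped (log2 fold change -0.07, 95% interval -0.41 to 0.28, adjusted p = 0.777), and library size alone turned the sign to 0.07. Lrif1, the partner that binds SMCHD1, was not called either (log2 fold change 0.37, adjusted p = 0.462).

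**Figure D4:**
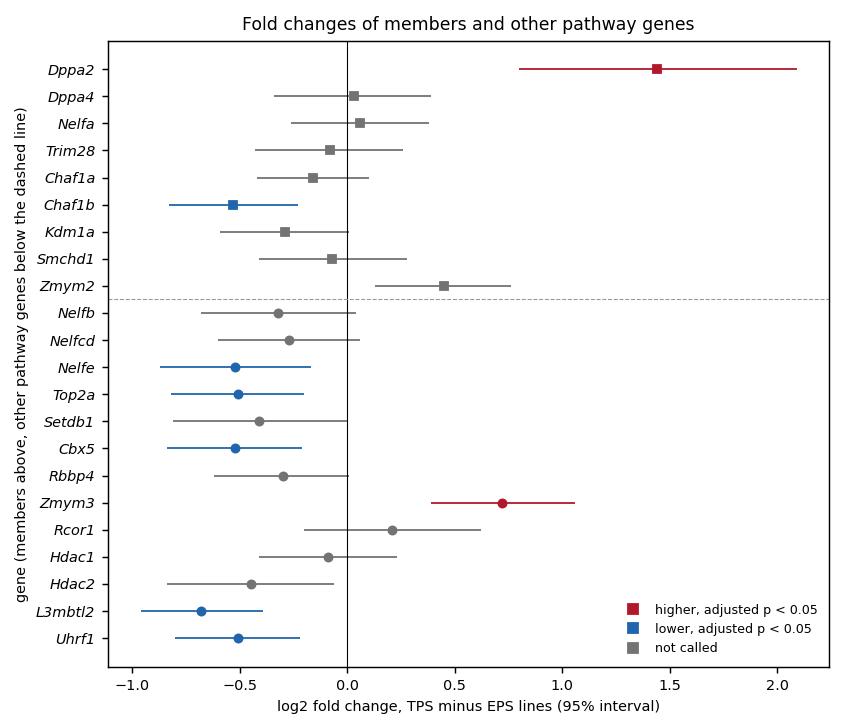
Log2 fold change of 9 members (squares) and of other pathway genes (circles), TPS minus EPS lines, with the 95% interval from edgeR over 3 lines per group. Red marks genes called higher, blue genes called lower and grey genes not called; Duxf3 is left out because a fitted fold change against a group at 0 counts depends on the prior count.

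PRC1.6, a Polycomb complex, and SUMO modification also limit Dux and its targets. Over all tested genes 7.34% were called lower, and the short lists of both pathways held 3 such genes. L3mbtl2, a subunit of PRC1.6, stood at 77.6, 80.9 and 87.5 CPM against 127, 125 and 141 CPM (log2 fold change -0.68 ± 0.12 SE, adjusted p = 0.00957). It was the 1 gene called of the 6 of that list, and Pcgf6, the subunit for which PRC1.6 is named, was not called (log2 fold change -0.29, adjusted p = 0.162). Of the 7 SUMO genes, Uba2, a subunit of the SUMO-activating enzyme (log2 fold change -0.61, adjusted p = 0.0233), and Sumo3, a SUMO protein (log2 fold change -0.52, adjusted p = 0.0345), were called lower.

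Among 6 other genes reported to limit the program, Uhrf1, the recruiter of maintenance DNA methylation, was lower at 429, 522 and 485 CPM against 693, 665 and 687 CPM (log2 fold change -0.51, adjusted p = 0.0270). Myc was higher, at 15.6, 19.2 and 48.1 CPM against 7.28, 5.71 and 9.11 CPM (log2 fold change 1.91, adjusted p = 0.0220), and TPS line 3 stood far above the other TPS lines. Over the 60 tested genes of the partner and repressor-pathway lists, with the members and the other reported activators Tbx3, Trp53 and Gata2 left out, 8 were called lower and 2 higher, beside 7.34% and 14.4% of all tested genes, and 47 were below 0 and 13 above, and the median was -0.25. Over all tested genes 8774 were below 0 and 8694 above. The list of 12 cycling-cell genes, which also holds Top2a, had a median of -0.28, with 11 of 12 below 0. With scaling by library size alone, the median of all tested genes was 0.14. The fibroblast list differed between the groups in the same libraries. The part of feeder RNA, of cycling and of scaling in these values was not tested.

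**Figure D5:**
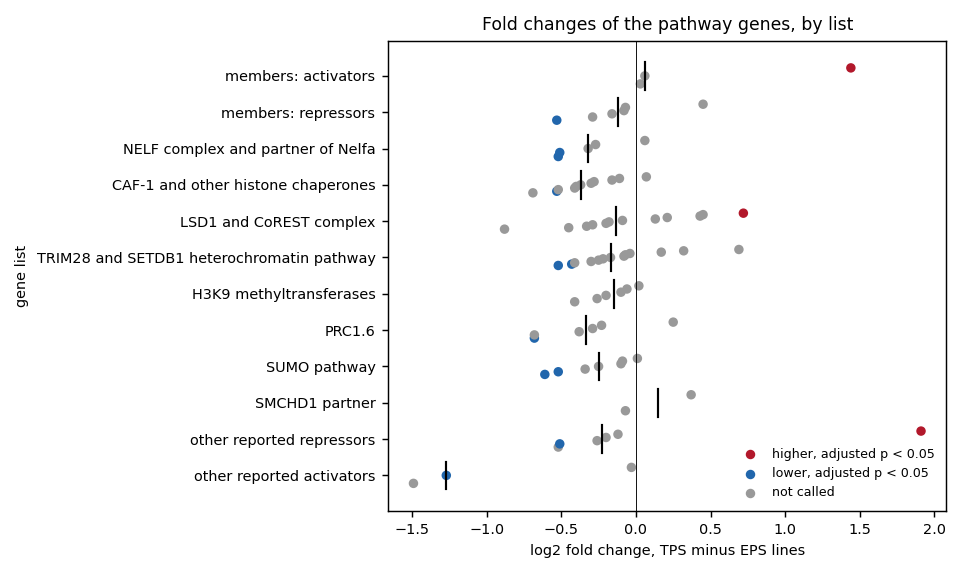
Log2 fold change (TPS minus EPS lines) of every tested gene in each list, with 1 point per gene and a black bar at the list's median. Red marks genes called higher and blue genes called lower at an adjusted p under 0.05; lists that contain a member include it, and most points of the repressor pathways lie between -0.7 and 0.

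Levels of different genes were compared as CPM per kilobase of annotated exon. In TPS lines the order from high to low was Trim28 (374 ± 58.2), Dppa4 (51.7 ± 3.53), Kdm1a (50.6 ± 6.20), Dppa2 (48.9 ± 14.7), Chaf1b (23.0 ± 1.36), Nelfa (22.2 ± 1.82), Zmym2 (13.9 ± 1.47), Chaf1a (9.82 ± 0.488), Smchd1 (4.91 ± 0.556) and Duxf3 (1.80 ± 0.665). Neighbours with overlapping ranges over the lines were Dppa4 with Kdm1a, Kdm1a with Dppa2, and Chaf1b with Nelfa. In EPS lines the order was Trim28, Kdm1a, Dppa4, Chaf1b, Nelfa, Dppa2, Chaf1a, Zmym2, Smchd1 and Duxf3, with overlapping ranges for Kdm1a with Dppa4, Nelfa with Dppa2, and Chaf1a with Zmym2. Dppa2 thus moved from rank 6 in EPS lines to rank 4 in TPS lines. With the longest transcript in place of the exon union, levels per kilobase in TPS lines were 13.9 CPM for Smchd1, 86.5 for Kdm1a, 38.1 for Chaf1b and 34.0 for Nelfa, each over 1.5 times the value above. Kdm1a then came before Dppa4 and Smchd1 before Chaf1a in TPS lines, Smchd1 moved from rank 9 to rank 7 in EPS lines, past Zmym2 and Chaf1a, and Dppa2 kept both ranks.

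The patterns most like each activator over the 6 lines were sought by Pearson's r of log2(CPM + 1) among 9734 tested genes with a mean of at least 10 CPM. Stxbp4, Slx1b and Txndc9 were most like Dppa2 (r between 0.994 and 0.999), Repin1, Lrrc14 and Slc4a3 most like Dppa4 (0.971 to 0.997), and Tubgcp4, Ascc2 and Arih1 most like Nelfa (0.952 to 0.972). For Dppa2 and Dppa4 themselves r was 0.31. The 6 points fall into 2 groups and the genes compared share their libraries, so these values are a description only.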

How the data were processed

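Polyadenylated RNA of TPS and EPS cells was captured on oligo(dT) beads and read from both ends. According to the submitters' processing notes and the methods, the authors used fastp 0.19.7 and STAR 2.7.3a on mouse build GRCm38 (mm10) and deposited raw counts per gene, without normalization. The counting tool, the annotation, the strand setting and the treatment of multi-mapping reads are not given in the sources used here, so near-identical or overlapping genes may share reads.

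Libraries were grouped by the submitters' labels, and counts of both technical replicates were summed per line. Neither the labels nor the methods say that the sequenced lines are separate derivations, so p-values measure the spread between these lines. Of 55401 gene identifiers, 55141 matched GENCODE M21 after the version was removed. Counts were tested with edgeR 4.0.16 (R 4.3.3; TMM, filterByExpr with 10 counts in a line and 15 in total, quasi-likelihood F test, Benjamini-Hochberg adjustment over 17468 genes). The standard error is the log2 fold change divided by the square root of F. Ratios were tested by exact permutation (scipy 1.17.1). Near-identical transcripts came from blastn 2.17.0 at 95% identity or more. The fits were checked on simulated data.

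The members and gene lists were chosen with earlier results of these data known, and the lists are therefore no independent evidence. Named genes are all members, from each list the called genes with the largest change (up to 3 in each direction), fixed binding partners (Rbbp4, Nelfb, Nelfcd, Nelfe, Rcor1, Hdac1, Hdac2 and Setdb1), and the 3 genes most like each activator. Setting aside that rule, Duxbl1, Duxbl2, Duxbl3, Sp110, Zscan5b, Cdx2, Gata3, Lrif1, Pcgf6, Gse1, Sox17, Pdgfra, Dab2, Fap, Trp53, Gata2 and near-identical copies were named after their values were seen. Promoters are from the RefSeq table of GRCm38.p6, and no window was used for Dppa2 and Dppa4. Alternatives were DESeq2 1.42.0, limma-voom (limma 3.58.1), other scaling and filters, 12 separate libraries, each technical replicate, a block by line number, a threshold of 0.01 and leaving out each line. A fibroblast covariate and the adding of near-identical genes were chosen after seeing the data.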

Additional observations from a re-analysis of the deposited data

How the results depend on the processing

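As reported, 2 of the 10 genes were called higher and 1 lower. Without each line in turn, the number called higher stayed at 2, Duxf3 and Dppa2, and the number called lower ranged from 0 to 1. Over all genes between 1617 and 2234 were then called higher and between 493 and 1047 lower. Duxf3 had 0 counts in every EPS line and had to differ once tested, so its place in the number called higher is no sign of stability. The number called lower was 0 with library size alone, with the line number as a replicate block, with a threshold of 0.01 and with the fibroblast covariate, and 2 with edgeR and with DESeq2 on 12 libraries. Over all genes those counts were 745 lower of 17468 with library size alone, 258 at a threshold of 0.01, 16 with the covariate, 3610 of 15512 with edgeR on 12 libraries and 3815 of 32608 with DESeq2 on 12 libraries, against 1282 of 17468 as reported, so the members' counts moved in the direction of those of all genes. The number called higher was 1 at a threshold of 0.01 and 1 with the fibroblast covariate, where Duxf3 was called (adjusted p = 0.0483) and Dppa2 was not, and it was 3 where Zmym2 passed. Over all genes 873 were called higher at a threshold of 0.01 and 90 with the covariate, against 2509 as reported. Where Zmym2 passed they ranged from 2000 of 15596 with technical replicate 1 alone to 5581 of 32608 with DESeq2 on 12 libraries. The cause of these changes was not tested, apart from the stricter threshold and the larger number of samples with 12 libraries, which are part of those settings.

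Deviations of same-numbered lines from their group means correlated at 0.024, -0.116 and 0.0423, so no likeness of same-numbered lines was seen. With 3 lines per group these correlations cannot exclude that such lines are related. With the replicate block 1714 genes were called higher and 721 lower, against 2509 and 1282, and Chaf1b had a log2 fold change of -0.53 with an adjusted p of 0.0685. Over all alternatives Dppa4 ranged from -0.11 to 0.17, Nelfa from -0.05 to 0.20, Trim28 from -0.21 to 0.07 and Smchd1 from -0.40 to 0.07, none of them called. Log2 differences of the ratios with 1 technical replicate were 1.35 and 1.42 for Dppa2 to Dppa4, and 0.42 and 0.33 for Chaf1a to Chaf1b. With 3 lines per group, the 95% intervals give the range of changes that these data leave possible for a gene that was not called.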
